A study of Homo sapiens with 6 samples.

Results

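The transcripts examined were those of 10 genes of bone morphogenetic protein (BMP) signalling, the inhibitors of DNA binding ID1, ID2, ID3 and ID4, the SMAD genes SMAD6, SMAD7 and SMAD9, the secreted antagonist GREM1 (gremlin 1), the ligand BMP4 and the transcription factor ATOH8. They are 10 of the 60671 genes of the expression table and were found in it by gene name. The set was chosen by pathway role and by measured values, namely differences in TPM of some of these genes between the same 2 groups. The differences of the members are therefore a description, and the p values and calls given for them are part of it and not a separate test. The cells were U87, an established human glioblastoma line. In the rutaecarpine group, 3 libraries came from cells given 100 μM rutaecarpine, an alkaloid, for 48 h in serum-free medium, and in the control group 3 libraries came from cells given the 0.1% DMSO solvent for 48 h. The rutaecarpine group carried the same 0.1% DMSO. A single line was used. The study's methods give n = 3 as independent experiments in general, but neither they nor the labels say that the 3 libraries of a group came from separate cultures. The p values thus measure the spread between these libraries, which may be technical.

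BMPs are secreted ligands that bind paired type I and type II receptor kinases. The receptors phosphorylate SMAD1, SMAD5 and SMAD9, which join SMAD4, enter the nucleus and switch on target genes, among which the ID genes are the best known. ID proteins have a helix-loop-helix but no DNA-binding region, and they hold E proteins away from DNA. In the nervous system they are known for keeping progenitor and stem-like cells from differentiating, and in glioblastoma BMPs are known for driving stem-like cells toward an astrocytic state. SMAD6 and SMAD7 are inhibitory SMADs that are themselves induced by the pathway, and gremlin captures BMP ligands outside the cell.

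Levels are in TPM, a measure of transcript abundance that is scaled for gene length and for the total of each library. Differences are log2 fold changes of TPM + 1, rutaecarpine over control, with the standard error (SE) from a limma model fitted to the 14377 genes that reached 1 TPM in at least 3 libraries. Of the 10 genes, 7 passed this filter, and ID4, SMAD9 and BMP4 did not. SMAD6 passed it through the control libraries and 1 rutaecarpine library. A gene was called a differentially expressed gene (DEG) when its p value, adjusted by the Benjamini-Hochberg method over all tested genes, was at most 0.05 and its log2 fold change was above 1 or below -1. By this rule 289 genes were up-regulated and 216 were down-regulated, and the split was 251 up and 295 down after each library was centred on its median. TPM keep no read numbers, so the depth behind each value is unknown.

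The libraries each held between 13758 and 14475 genes at 1 TPM or more. Control 3 stood apart, with a median log2(TPM + 1) of 3.56 against 3.81 to 4.00 in the other 5 libraries and a correlation with the other controls of 0.965 against 0.986 between those controls. Of the glial and neural stem markers, NES was at 19.5 TPM in the control group and GFAP at 3.98 TPM, OLIG2 was at 1.59 TPM, and SOX2 and S100B were near 0 and AQP4 at 0 TPM, while the mesenchymal markers VIM and CD44 were at 7498 and 655 TPM. The summed level of the 6 glial markers was 24.0 to 26.2 TPM in the control group and 20.1 to 22.7 TPM in the rutaecarpine group. That sum mixed directions, since with rutaecarpine NES was lower, at 13.2 TPM, OLIG2 higher, at 3.63 TPM, and GFAP overlapped, at 4.67 TPM. The 4 mesenchymal markers summed to 12677 to 15409 TPM against 8700 to 9402 TPM. There VIM (4857 TPM with rutaecarpine), FN1 (6025 against 3241 TPM) and COL1A1 (296 against 131 TPM) were lower, and CD44 overlapped, at 756 TPM. Epithelial markers summed to 8.54 to 10.6 TPM against 8.42 to 12.8 TPM, nearly all of it KRT8, and endothelial markers summed to 1.04 to 1.17 TPM against 1.20 to 2.20 TPM, with CDH5 at or near 0. The immune markers summed to 452 to 511 TPM against 319 to 357 TPM, which was almost wholly CD68, a lysosomal protein gene, with PTPRC and CD3E at or near 0. What part these differences had in the levels below was not tested.

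ID1 and ID3 were the members with the largest lower values in the rutaecarpine group, and the groups of ID2 overlapped. ID1 (ENSG00000125968) lies on chromosome 20 from 31605283 to 31606515 on the plus strand, ID3 (ENSG00000117318) on chromosome 1 from 23557918 to 23559794 on the minus strand, and ID2 (ENSG00000115738) on chromosome 2 from 8678845 to 8684453 on the plus strand, all in GENCODE release 29 coordinates of GRCh38. Rutaecarpine is studied in these cells as an activator of the aryl hydrocarbon receptor (AhR), which binds DNA elements with the core GCGTG, so the sequences before the RefSeq start sites of these 3 genes are shown with that core, or its reverse complement CACGC, in capitals. The 244 bases just before the annotated ID1 exons, at chr20:31605039-31605282 on the plus strand, hold both orientations of the core.
ID1 upstream sequence: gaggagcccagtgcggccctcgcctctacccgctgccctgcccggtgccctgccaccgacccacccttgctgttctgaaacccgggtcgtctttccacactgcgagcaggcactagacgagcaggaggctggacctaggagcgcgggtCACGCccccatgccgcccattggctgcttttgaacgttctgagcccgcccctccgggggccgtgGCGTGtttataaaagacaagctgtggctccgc
The core also occurs in both orientations before the RefSeq start of ID2 and, on the strand of the gene, at 2 places at the RefSeq start of ID3. GENCODE has these genes begin farther upstream, so 202 of the 250 bases of the ID2 promoter and all 250 of the ID3 promoter lie in exons of GENCODE transcripts, and the 4 matches lie within the genes as placed above. Each match is shown with 12 bases on either side, read along the strand of the gene.
ID2, chr2:8681901-8681929, core 143 to 139 bases before the RefSeq start: aagaaccaagccCACGCcccgcgcccgcg
ID2, chr2:8681991-8682019, core 53 to 49 bases before the RefSeq start: agggaagctccaGCGTGtggccccggcga
ID3, chr1:23559535-23559563, core 50 to 46 bases before the RefSeq start: ttgaataaagagGCGTGccttccaggcag
ID3, chr1:23559493-23559521, core 8 to 4 bases before the RefSeq start: ccgccgcggcgaGCGTGcgcgcgttgcag
These sequences are RefSeq promoters of GRCh38.p14, read from 250 bases before each RefSeq start. Among the members, 6 of 10 genes and 6 of their 15 RefSeq promoters held the core on either strand, against 32.2% of all 35116 promoters of that length. The core is short and a match is a description of the letters only. The study searched for the longer elements TNGCGTG and CACGCNA, where N is any base. Of the ID1, ID2 and ID3 matches shown, only the GCGTG of ID1, which follows the letters tg, has such an element. ID1 and ID3, which were lower in the rutaecarpine group, and ID2, whose groups overlapped, each held 2 matches, as did 1 promoter each of GREM1 and SMAD7, which were higher, and of BMP4, which was at or near 0 TPM.

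In the control group ID1 was at 55.5, 57.1 and 58.1 TPM, and in the rutaecarpine group at 14.9, 14.8 and 11.3 TPM. The means were 56.9 ± 1.28 and 13.7 ± 2.04 TPM (SD, n = 3 each), a 4.16-fold lower level, and every rutaecarpine library lay below every control library. The log2 fold change was -1.99 (SE 0.13), and leaving out any one library moved it only between -2.05 and -1.87. The level stood at the 83.2nd percentile of the tested genes in the control group and at the 49.0th in the rutaecarpine group.

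ID3 differed more. Its control libraries held 58.4, 51.2 and 67.1 TPM and its rutaecarpine libraries 10.3, 9.13 and 8.67 TPM. The means were 58.9 ± 7.93 and 9.38 ± 0.857 TPM, a 6.28-fold lower level, again with no overlap. The log2 fold change was -2.52 (SE 0.14), with a range of -2.62 to -2.43 when 1 library was left out. The level stood at the 83.8th percentile of the tested genes in the control group and at the 39.6th in the rutaecarpine group.

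ID2 was at 59.0, 57.2 and 49.2 TPM in the control group and at 50.7, 45.2 and 42.2 TPM in the rutaecarpine group. The groups overlapped, since control 3 lay below rutaecarpine 1, and the means were 55.2 ± 5.22 and 46.0 ± 4.32 TPM, a ratio of 0.834. The log2 fold change was -0.26 (SE 0.11). An antisense gene, ID2-AS1, shares 38 exonic bases with ID2, and whether the counting used strand is not given in the sources used here, so reads of the 2 genes may not be separable there. ID4, the fourth gene of the family, was at 0.23, 0.33 and 0.16 TPM in the control group and at 0.46, 0.14 and 0.22 TPM in the rutaecarpine group, too low to be tested and overlapping.

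**Figure D1:**
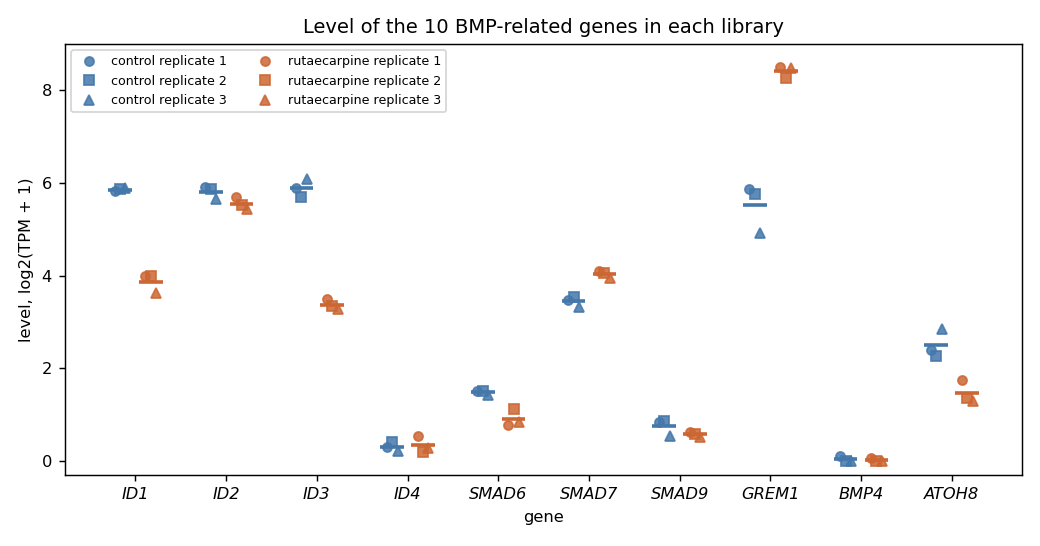
Level of each of the 10 members, as log2(TPM + 1), in each of the 3 control (blue) and 3 rutaecarpine (orange) libraries, with a line at each group mean and a marker shape for each replicate number. The points of ID1, ID3, SMAD6 and ATOH8 are lower and those of GREM1 and SMAD7 higher with rutaecarpine, and those of ID2, ID4, SMAD9 and BMP4 overlap.

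With all 4 genes added, the ID family summed to 173, 166 and 175 TPM in the control group and to 76.4, 69.2 and 62.4 TPM in the rutaecarpine group, means of 171 ± 4.67 and 69.3 ± 6.99 TPM. The 3 main members held near-equal shares of the control total, 33.2% ± 1.17 for ID1, 32.3% ± 3.52 for ID2 and 34.3% ± 3.81 for ID3. In the rutaecarpine group ID2 alone held 66.4% ± 1.21 of the total, ID1 19.7% ± 1.64 and ID3 13.5% ± 0.353. The share of ID2 was 34.1%, 34.5% and 28.2% in the control libraries and 66.4%, 65.2% and 67.6% in the rutaecarpine libraries. The family total was lower with rutaecarpine, and ID2 was its most abundant transcript there.

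**Figure D2:**
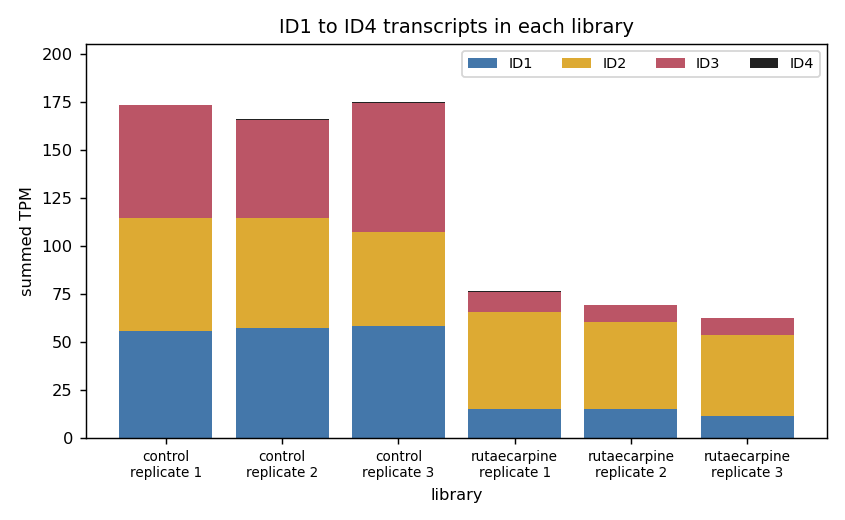
Summed TPM of ID1, ID2, ID3 and ID4 in each library, stacked by gene. The control totals lie between 166 and 175 TPM and the rutaecarpine totals between 62.4 and 76.4 TPM, with the ID2 segment nearly as tall in both groups.

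The proteins that ID proteins hold, the E proteins TCF3, TCF4 and TCF12, summed to 144, 132 and 85.5 TPM in the control group. In the rutaecarpine group they summed to 110, 86.6 and 109 TPM, so the groups overlapped, through control 3 alone. The ratio of summed ID to summed E protein transcripts was 1.20, 1.26 and 2.04 in the control libraries and 0.694, 0.800 and 0.574 in the rutaecarpine libraries. It did not overlap between the groups, and the high control value is that of control 3, in which TCF4 and TCF12 were at 8.13 and 14.7 TPM. This ratio counts ID1 and ID3 and so is also a description.

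GREM1 was the member with the largest higher value. It lies on chromosome 15 from 32717974 to 32745107 on the plus strand (ENSG00000166923). The control libraries held 57.8, 53.1 and 29.3 TPM and the rutaecarpine libraries 360.1, 306 and 358 TPM. The means were 46.7 ± 15.3 and 341 ± 30.6 TPM, a 7.30-fold higher level with no overlap, and the log2 fold change was 2.90 (SE 0.24). Control 3 gave the lowest value, and without it the log2 fold change was 2.60, the lowest value when 1 library at a time was dropped, and the highest was 3.08. The level moved from the 79.9th to the 97.3rd percentile of the tested genes. An opposite-strand long intergenic RNA, AC090877.2, shares 188 exonic bases with GREM1 and was listed at 0.14 to 2.16 TPM across the 6 libraries, so reads of the pair may not be separable there.

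The sequence before the first GREM1 exon is shown because BMP SMADs bind GC-rich elements of the kind GGCGCC as well as the SMAD-binding letters CAGAC, whose reverse complement is GTCTG. The 220 bases at chr15:32717754-32717973, on the plus strand of GRCh38.p14, hold GGCGCC at 2 places and CAGAC once in each orientation, and these are in capitals.
GREM1 upstream sequence: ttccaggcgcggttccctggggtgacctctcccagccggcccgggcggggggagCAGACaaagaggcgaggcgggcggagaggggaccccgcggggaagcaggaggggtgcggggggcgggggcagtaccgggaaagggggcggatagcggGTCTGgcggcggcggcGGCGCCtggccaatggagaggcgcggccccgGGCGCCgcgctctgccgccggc
GGCGCC reads the same on both strands and occurred in 2 of the 15 member promoters, those of GREM1 and BMP4, against 16.4% of all promoters. CAGAC or its reverse complement occurred in 8 of 15, against 38% of all promoters. No match of these motifs or of the AhR core shared bases with another in the sequences shown, and the ID1 promoter held neither GGCGCC nor CAGAC in this window.

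The inhibitory SMADs differed in opposite directions, though SMAD6 was near 1 TPM and was not a DEG. SMAD7, which blocks BMP and TGF-beta receptors, lies on chromosome 18 from 48919853 to 48952052 on the minus strand. It was at 10.1, 10.6 and 9.01 TPM in the control group and at 16.0, 15.7 and 14.5 TPM in the rutaecarpine group, so all rutaecarpine libraries were higher. The means were 9.90 ± 0.800 and 15.4 ± 0.822 TPM, a ratio of 1.55, and the log2 fold change of 0.59 (SE 0.13) became 0.50 with the libraries centred on their medians.

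SMAD6, which preferentially blocks BMP receptors, lies on chromosome 15 from 66702228 to 66782848 on the plus strand. Its control libraries were at 1.85, 1.84 and 1.68 TPM and its rutaecarpine libraries at 0.71, 1.17 and 0.79 TPM, so all rutaecarpine libraries were lower. The means were 1.79 ± 0.0954 and 0.890 ± 0.246 TPM, a ratio of 0.497. On the log2(TPM + 1) scale the difference was -0.57 (SE 0.17), and with 0.1 added to each TPM in place of 1 it was -0.96, since adding 1 shrinks the differences of weakly expressed genes.

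SMAD9, a receptor-activated SMAD of the BMP branch, was low and overlapping, at 0.78, 0.83 and 0.46 TPM in the control group and 0.53, 0.50 and 0.43 TPM in the rutaecarpine group. BMP4, the one ligand among the members, was listed at 0 in 4 of the 6 libraries and at 0.08 TPM in control 1 and 0.04 TPM in rutaecarpine 1. No comparison of BMP4 between the groups was possible at these levels.

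ATOH8, a basic helix-loop-helix factor whose transcript is known to rise with BMP in endothelial and liver cells, lies on chromosome 2 from 85751344 to 85788066 on the plus strand. Its control libraries were at 4.23, 3.77 and 6.22 TPM and its rutaecarpine libraries at 2.37, 1.56 and 1.46 TPM. All rutaecarpine libraries were lower, with means of 4.74 ± 1.30 and 1.80 ± 0.499 TPM, a 2.64-fold lower level. The log2 fold change of -1.03 (SE 0.23) lay close to the limit of -1, and it was -0.85 without control 3. ATOH8 was a DEG in 5 of 15 alternative settings and in none of the 6 that left out 1 library.

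**Figure D3:**
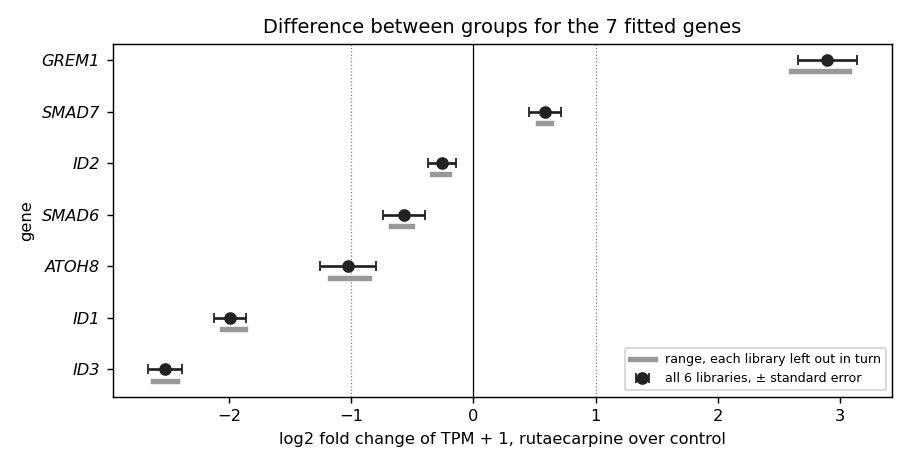
Log2 fold change of TPM + 1 (rutaecarpine over control) of the 7 members that passed the filter, with SE bars, and grey bars for the range when each library was dropped in turn. GREM1 at 2.90 and ID3 at -2.52 are the outermost, and ATOH8 at -1.03 lies at the dotted limit.

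By the rule for DEGs, GREM1 was up-regulated and ID1, ID3 and ATOH8 were down-regulated, 1 and 3 of the 7 members tested. Among all tested genes 2.01% were up-regulated and 1.50% were down-regulated, but the members were chosen with this comparison in view and nothing is read from their counts. On the adjusted p alone, 2 members were higher and 3 were lower, where 4.60% of all tested genes were higher and 4.68% were lower. All rutaecarpine libraries lay above all control libraries for 2 members and below them for 4, against 19.3% and 14.0% of all tested genes. SMAD7 met the limit on the adjusted p and not the one on the fold change. SMAD6 and ID2 met neither, with limma adjusted p values of 0.0954 and 0.229. ATOH8 met both, that on the fold change narrowly. In a bulk measurement, fewer cells with a transcript and less of it per cell cannot be told apart.

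The order of the members by level also differed between the groups. In the control group ID3, ID1, ID2 and GREM1 came first with means of 46.7 to 58.9 TPM and did not separate from one another beyond their spread. SMAD7, ATOH8, SMAD6, SMAD9, ID4 and BMP4 followed, each with libraries below those of the member before it. In the rutaecarpine group the order was GREM1, ID2, SMAD7, ID1, ID3, ATOH8, SMAD6, SMAD9, ID4 and BMP4. There SMAD7 and ID1 overlapped, as did SMAD9 and ID4, and the other neighbours did not.

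Correlations with ID1 and ID3 over the 6 libraries were taken on log2(TPM + 1). They covered 13115 tested genes with a mean of at least 2 TPM in a group, members left out. The 3 genes that followed ID1 most closely were RRAS2, KIF22 and CDCA3, with a Pearson r of 0.9986, 0.9984 and 0.9983. Those closest to ID3 were CDC20, CLEC3B and FANCD2, with an r of 0.9998, 0.9996 and 0.9996. RRAS2 encodes a small GTPase, KIF22 a mitotic kinesin, CDC20 an activator of the anaphase-promoting complex and FANCD2 a DNA repair protein. All 6 genes had lower means in the rutaecarpine group, such as 89.1 and 38.5 TPM for CDC20 and 45.2 and 9.66 TPM for CLEC3B. The 6 points are 2 groups of libraries, so these correlations share the difference between the groups.

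Genes around the members were taken from 8 lists with 89 genes, of which 55 were tested. Besides lists of the BMP pathway, these hold a list of E proteins and bHLH factors and a list of TGF-beta transcripts. Of the 55 genes, 1 was up-regulated and 2 were down-regulated, against 2.01% and 1.50% of all tested genes. The down-regulated genes were DLX5 and, from the TGF-beta list, CCN2. On the adjusted p alone 5 of the 55 were higher and 4 were lower, against 4.60% and 4.68% of all tested genes. Among these, 1 higher gene came from the E protein list, and 1 higher and 2 lower genes came from the TGF-beta list. The median log2 fold change of the 55 genes was 0.20, against 0.08 over all tested genes. Without control 3 the median over all tested genes was -0.01, and that of the 55 genes was not taken. At an unadjusted p under 0.05, 13.4% of all tested genes were higher and 11.0% were lower, the background for the list counts that follow. Among the ligands other than BMP4, 3 of 11 were tested and none was a DEG in limma, 0 were higher and 1 was lower at an unadjusted p under 0.05. BMP2 was at 3.41 ± 0.750 and 4.08 ± 0.410 TPM, BMP6 at 3.50 ± 0.707 and 2.79 ± 0.899 TPM, and GDF5 at 8.73 ± 0.586 and 5.55 ± 0.926 TPM in the control and rutaecarpine groups. GDF5 was lower in every rutaecarpine library, with a limma adjusted p of 0.0831.

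Among the receptors and co-receptors, 8 of 13 were tested and 0 were DEGs in limma, with 1 higher and 1 lower at an unadjusted p under 0.05. ACVR1, a type I receptor of the BMP branch, rose from 44.0 ± 5.67 to 63.4 ± 2.91 TPM (log2 fold change 0.52, SE 0.12, limma adjusted p 0.0366). ENG (endoglin), a co-receptor best known in endothelium, fell from 44.0 ± 3.77 to 30.1 ± 2.04 TPM (log2 fold change -0.53, SE 0.11, limma adjusted p 0.0272). Both calls were narrow, since with 1 library dropped at a time the adjusted p was at most 0.05 only without control 3 and reached 0.161 for ACVR1 and 0.105 for ENG. The endothelial markers given above were at low levels in both groups. BMPR1A, a type I receptor, had a log2 fold change of 0.12 with a 95% interval from -0.57 to 0.81, and BMPR2, the type II receptor, one of 0.23 with an interval from -0.65 to 1.11. RGMB, a co-receptor, had one of 0.33 with an interval from -0.13 to 0.79. These intervals leave room for a difference of either direction.

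The other SMADs, SMAD1 to SMAD5, did not pass the test either, 0 of 5 in limma and 0 in each direction at an unadjusted p under 0.05. SMAD2 and SMAD3 are counted here but are not among the carriers of the BMP signal named above. SMAD1 was at 8.99 ± 2.36 TPM in the control group and 9.51 ± 0.466 TPM in the rutaecarpine group, with a 95% interval of the log2 fold change from -0.39 to 0.59. SMAD5 was at 12.7 ± 6.05 and 14.5 ± 2.70 TPM, with an interval from -0.61 to 1.16. SMAD4, the partner shared with TGF-beta signalling, was at 26.6 ± 10.2 and 32.4 ± 5.12 TPM, with an interval from -0.35 to 1.03. All 3 overlapped between the groups, and control 3 had the lowest value of each. Without control 3 the log2 fold change was -0.11 for SMAD1 and -0.17 for SMAD5, and it was likewise below 0 for BMPR1A (-0.21) and BMPR2 (-0.19).

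Of the 14 secreted antagonists other than GREM1, 6 were tested and 0 were DEGs in limma, with 0 higher and 2 lower at an unadjusted p under 0.05. These were CHRDL1 (chordin-like 1), at 2.95 ± 0.840 and 1.16 ± 0.374 TPM, and BMPER, at 15.0 ± 4.37 and 8.74 ± 1.04 TPM, with limma adjusted p values of 0.0719 and 0.130. NOG (noggin) stayed under 0.2 TPM in every library. The 14 intracellular regulators of SMADs, such as SMURF1 and the SMAD anchors, gave 0 DEGs in limma, 2 higher and 0 lower at an unadjusted p under 0.05, and a median of 0.37. Control 3 was the lowest control for all 14, and no median was taken without it. With 1 library dropped at a time, SMURF2 fell as low as -0.41 and TRIM33 as low as -0.09, while SMURF1 stayed at 0.39 or above.

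Of the 14 transcripts other than the members that are known to rise with BMP, 8 were tested, with 1 up-regulated and 1 down-regulated. At an unadjusted p under 0.05, 4 were higher and 1 was lower, and the median was 0.41. All rutaecarpine libraries lay above the controls for 5 and below them for 1, against 19.3% and 14.0% of all tested genes. DLX2 and GATA3, which count as higher in both ways, passed the filter only through the rutaecarpine group. DLX5, the lower one, passed it only through the control group, so the filter had a part in these counts. DLX2, a homeobox factor of forebrain interneuron progenitors, rose from 0.777 ± 0.202 to 4.02 ± 0.144 TPM (log2 fold change 1.50, SE 0.17, limma adjusted p 0.00274). DLX5, a homeobox factor of bone and forebrain, fell from 1.68 ± 0.251 to 0.300 ± 0.0265 TPM (log2 fold change -1.04, SE 0.16, limma adjusted p 0.00972). Each passed the filter only through the group in which it was higher, since DLX2 was under 1 TPM in every control library and DLX5 in every rutaecarpine library, and with no filter the limma adjusted p was 0.0166 for DLX2 and 0.0191 for DLX5. With a pseudocount of 0.1 the log2 fold changes were 2.26 and -2.14. DLX5 was no longer a DEG without control 3, at -0.96, nor without rutaecarpine 3, where the limma adjusted p was 0.0532. JUNB, a component of the AP-1 factor, rose from 66.5 ± 0.708 to 92.3 ± 4.79 TPM (log2 fold change 0.47, SE 0.08, limma adjusted p 0.0140). JUNB kept an adjusted p of at most 0.05 only without control 3 when 1 library at a time was dropped, and otherwise had up to 0.0669, and after centring it had 0.183. HEY1, a Notch and BMP target, at 1.33 ± 0.0737 and 2.38 ± 0.506 TPM, and GATA3, a zinc finger factor, at 0.760 ± 0.187 and 1.95 ± 0.630 TPM, were higher in every rutaecarpine library, with limma adjusted p values of 0.128 and 0.0931. GATA3 was under 1 TPM in every control library. The other 3 tested did not pass either, and HES1, MSX2 and HAMP were at or near 0 TPM.

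Of the E proteins and opposing bHLH factors, 4 of 9 were tested and 0 were DEGs in limma, 1 higher and 1 lower at an unadjusted p under 0.05. OLIG2, a factor of the oligodendrocyte lineage, rose from 1.59 ± 0.129 to 3.63 ± 0.524 TPM (log2 fold change 0.83, SE 0.17, limma adjusted p 0.0262). Its adjusted p reached 0.125 when 1 library at a time was dropped, and was at most 0.05 only without control 3. The lower gene was the E protein TCF3, at 66.3 ± 3.23 and 54.7 ± 3.12 TPM (log2 fold change -0.27, SE 0.09, limma adjusted p 0.118). TCF3 was lower in every rutaecarpine library, and TCF4 and TCF12 overlapped between the groups.

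For the sister branch, transcripts known to rise with TGF-beta were set beside those of BMP, and 7 of 9 were tested. CCN2, a matricellular protein gene, fell from 15.9 ± 1.78 to 5.04 ± 0.546 TPM (log2 fold change -1.48, SE 0.16, limma adjusted p 0.00207). TGFBI fell from 4404 ± 244 to 2416 ± 101 TPM (log2 fold change -0.87, SE 0.08, limma adjusted p 0.00138), and BHLHE40, which is also induced by hypoxia, rose from 146 ± 34.2 to 243 ± 19.3 TPM (log2 fold change 0.76, SE 0.18, limma adjusted p 0.0436). TGFBI kept an adjusted p of at most 0.05 whichever library was dropped, as did CCN2, whereas that of BHLHE40 reached 0.16 and was at most 0.05 only without control 3. The median of the list was -0.52.

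**Figure D4:**
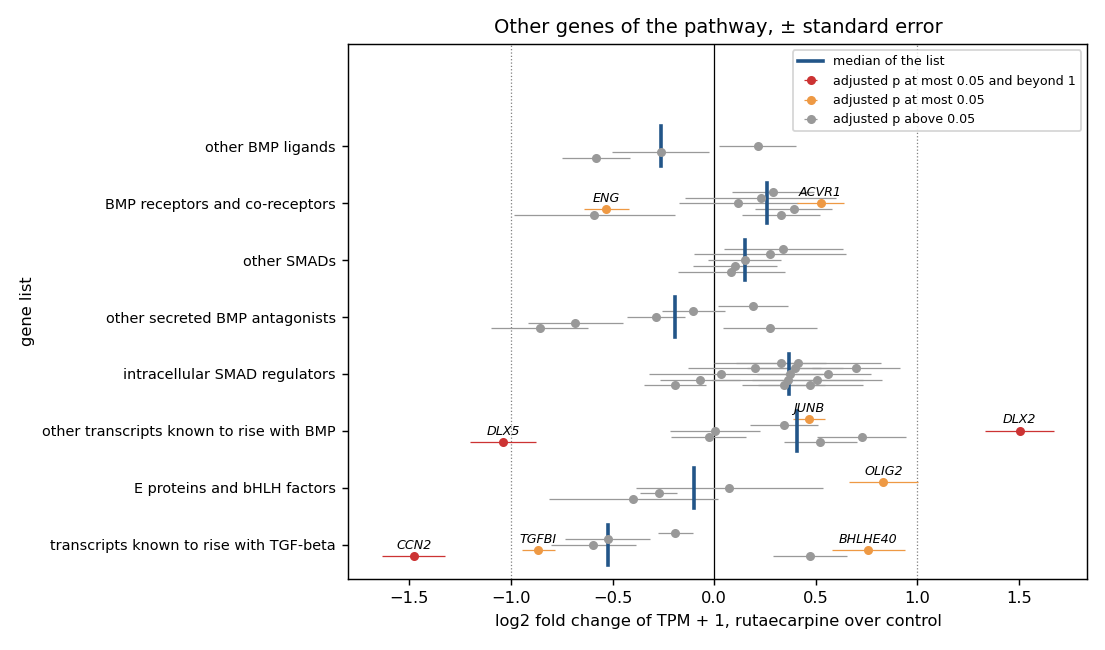
Log2 fold change of TPM + 1 (rutaecarpine over control, with SE bars) of the 55 tested genes of the 8 lists, coloured by whether the limma adjusted p was at most 0.05 and whether the change passed the limit of 1, with a blue line at each list's median. DLX2 at 1.50 lies beyond the upper limit and DLX5 at -1.04 and CCN2 at -1.48 beyond the lower one, and SMAD1 to SMAD5 lie between 0.08 and 0.34.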

How the data were processed

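RNA-Seq of U87 cells gave 6 libraries, 3 treated with rutaecarpine and 3 with solvent, which were grouped and numbered by the sample labels. The authors sequenced them on an Illumina NovaSeq and deposited TPM, 1 column per library. The submitters' processing notes name RSEM, DESeq2, edgeR and GRCh38.p13, and the aligner, annotation release and strand setting are not given in the sources used here. RSEM divides reads among overlapping or similar genes. Each column matched 1 sample, with 0 left over. Names missing from 35671 rows were looked up by gene identifier.

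TPM keep no read numbers, so count models were not used. Genes with at least 1 TPM in at least 3 libraries were tested on log2(TPM + 1) with limma 3.58.1 in R 4.3.3 (mean-variance trend, two-sided, Benjamini-Hochberg adjustment over 14377 genes), and no covariate was used. The limits of 0.05 and 1 follow the study's methods. The script was first tried on simulated data. Tables and figures were made in Python 3.11.15 (matplotlib 3.10.9, pandas 2.3.3, numpy 2.4.6). Gene positions and exons came from GENCODE release 29, and promoters from RefSeq on GRCh38.p14. All 10 members matched 15 promoters.

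The members and lists were chosen with earlier results of these data known. The rule for named genes took the members, every DEG of the lists, those of the BMP receptors, SMAD1, SMAD4 and SMAD5 with a mean of 10 TPM or more in a group, and the 3 tested genes with the highest Pearson r with ID1 and with ID3. BMPR2 and SMAD1, which did not reach 10 TPM, and the other list genes that were not DEGs were named after their values were seen.

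The alternatives were centring, no trend, no filter, 1 TPM in every library, a pseudocount of 0.1, a replicate block, library weights, a correction for transcript length and GC content (splines with 5 degrees of freedom, 14267 genes, 99.2% of those tested), an adjusted p of 0.001, and leaving out each library.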

Additional observations from a re-analysis of the deposited data

How the results depend on the processing

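The members that were tested and DLX2, DLX5 and CCN2 kept their direction in every alternative. SMAD1, SMAD5, BMPR1A and BMPR2, which did not pass the test, turned negative without control 3 and with library weights (-0.09, -0.04, -0.14 and -0.05), and BMPR1A and BMPR2 also with the length and GC correction (-0.07 and -0.02). After centring, down-regulated genes (295) outnumbered up-regulated ones (251). Among the counts of genes, 78 values stayed within 1.5 times the reported count and 12 did not. At an adjusted p of at most 0.001, 65 genes were up-regulated and 29 down-regulated, and 0 of the other pathway genes were up-regulated and 0 down-regulated. Leaving out 1 library gave 153 to 330 down-regulated genes, the 330 without control 3, against 216 with all libraries, and 1 to 3 down-regulated pathway genes against 2, the 1 without rutaecarpine 3. Without control 3, TGFBR3 (-1.04) and CHRDL1 (-1.05) were down-regulated and DLX5 was not. Library weights, and a filter that asked for 1 TPM in all libraries, each left 1 down-regulated pathway gene, the latter also 0 up-regulated ones, and a pseudocount of 0.1 gave 2 up-regulated ones. For single genes and lists, 358 values stayed within the spread between replicates, on their side of the limits or within 1.5 times the reported count. DLX5 lost its call in 4 settings besides the stricter limit, and 15 other values moved. Why these counts moved was not tested.

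The replicate numbers did not pair the libraries. The deviations of same-numbered libraries correlated at 0.12, -0.27 and -0.22, and control 3 correlated best with rutaecarpine 2 (0.39). With the replicate block 193 genes were up-regulated and 125 down-regulated, with 1 down-regulated pathway gene. TPM hold no depth, so no limit of detection can be given for BMP4, ID4 or SMAD9.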
